A study of Mus musculus with 2 samples.

Results

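The genes of excitation-contraction coupling and calcium handling were followed here in the tdTomato-positive cells of mouse embryos. They were 10 genes, chosen by symbol, of the 32285 genes in the files: Ryr1, Ryr3, Cacna1s, Cacnb1, Cacng1, Stac3, Atp2a1, Atp2a2, Casq2 and Mrln. All 10 were found under those symbols and all had UMIs (unique molecular identifiers, each standing for 1 captured transcript). The study removed the splicing factor SRSF2 from the Myf5 lineage, which holds the precursors of trunk and limb muscle, and sequenced single cells of both genotypes by a droplet method that reads the 3′ end of each transcript. The control library, Het/tdT, came from SRSF2f/w/Myf5-Cre/tdT embryos, in which 1 Srsf2 allele is floxed. The knockout library, MKO/tdT, came from SRSF2f/f/Myf5-Cre/tdT embryos, in which both alleles are floxed. In both, Cre was driven by the Myf5 locus and switched on a tdTomato reporter at Rosa26, and the embryos were taken at E14, decapitated and eviscerated, and their trunks and limbs sorted for tdTomato-positive cells. The sort therefore followed every cell with a history of Myf5-Cre activity, not muscle alone.

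There was 1 library per genotype, and the number of embryos behind each is not given in the sources used here. So no difference between genotypes could be set against a spread between animals, no test was made, and the intervals below cover counting error only. UMIs of a gene come in clumps in single cells, so even the counting error is understated. Het/tdT held 15268 barcodes, of which 12523 passed the quality limits with a median of 10751 UMIs, and MKO/tdT held 12498, of which 10345 passed with a median of 9480. The libraries shared 74 barcode sequences. Srsf2 itself, at chr11:116849901-116853094 on the minus strand of GRCm38, was at 219 CPM (UMIs of the gene per 1000000 UMIs of all genes in the same cells, 95% interval 217 to 221) in the kept cells of Het/tdT and 153 (151 to 155) in MKO/tdT. In muscle cells the values were 251 and 183 CPM, a ratio of 0.729. Srsf2 was therefore lower in the library called MKO/tdT but far from absent. Whether its 3′ tags lie inside the part removed by Cre is not given in the sources used here, so this is a weak check of the labels. The genotype of each library was read from the headings of the study's quality summaries, matched by number of barcodes, while the repository attaches those summaries to samples whose titles give the opposite genotype. Under the other assignment every direction between genotypes given below turns around.

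Muscle cells were those with at least 2 UMIs of Pax7, Myf5, Myod1 and Myog together. They were 2753 cells (22.0%) of Het/tdT and 140 cells (1.35%) of MKO/tdT, and in each library 87.9% of them lay in clusters named SKM-like from a list of skeletal muscle markers. Myog, the transcription factor that marks committed myocytes, then divided them into cells with 0, 1 to 4, 5 to 14 and 15 or more Myog UMIs. Het/tdT had 1121, 641, 371 and 620 cells in these bins, and MKO/tdT had 56, 24, 18 and 42. The bins differed in purity: 89.9%, 71.1%, 95.1% and 97.4% of the Het/tdT cells lay in SKM-like clusters. For MKO/tdT these shares were 89.3%, 70.8%, 88.9% and 95.2%. The second Het/tdT bin had the highest summed mesenchymal (1900 CPM) and chondrocyte (1236 CPM) markers, against 1193 and 726 in the first. Neither sum peaked in the second bin of MKO/tdT. Median depth differed little between the bins of Het/tdT, from 13416 to 15106 UMIs per cell. The summed level of the skeletal muscle markers was 1380 CPM in the muscle cells of Het/tdT and 2221 in those of MKO/tdT. The defining markers of heart muscle, which uses several of the same calcium genes, summed to 1.81 and 2.85 CPM. In the Het/tdT cells with 15 or more Myog UMIs, 6 of these 8 heart markers were at 0, with 7 UMIs of Myh6 and 10 of Hand2 making up the rest.

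In skeletal muscle an action potential in the T-tubule is sensed by a calcium channel of the surface membrane that acts mainly as a voltage sensor, and that touches the ryanodine receptor of the sarcoplasmic reticulum. Calcium then leaves the store through the ryanodine receptor, the fibre contracts, and calcium pumps of the SERCA family return it to the store, where calsequestrin binds it. Small membrane peptides hold the pumps back. The machinery is assembled as myocytes differentiate and fuse, and the Myog bins run from cells without this marker of commitment to cells rich in it. The second bin had the smallest SKM-like share of either library, so its levels need not be those of a muscle stage alone. The part of non-muscle cells in those levels was not tested.

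Start regions of 3 members are shown because they stood apart in the comparison of Myog bins: Atp2a1 and Casq2 gave the highest ratios among the members past the minimum count, and Mrln, which was higher in Myh3-rich cells, differed little between Myog bins. Each runs from 250 bases before to 50 bases after the start of a RefSeq transcript (GRCm38.p6), 5′ to 3′ on the strand of the gene, with every CANNTG, the letters of an E-box, in capitals. The E-box is the site read by the MyoD family, Myog included. Atp2a1 lies at chr7:126463024-126463323 on the minus strand, Casq2 at chr3:102086165-102086464 on the plus strand and Mrln at chr10:70204414-70204713 on the plus strand.
Atp2a1: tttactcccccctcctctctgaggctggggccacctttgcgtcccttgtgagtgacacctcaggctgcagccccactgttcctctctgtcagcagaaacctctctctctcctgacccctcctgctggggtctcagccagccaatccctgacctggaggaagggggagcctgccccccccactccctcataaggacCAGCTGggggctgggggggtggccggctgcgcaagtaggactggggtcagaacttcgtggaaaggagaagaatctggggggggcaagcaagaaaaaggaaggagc
Casq2: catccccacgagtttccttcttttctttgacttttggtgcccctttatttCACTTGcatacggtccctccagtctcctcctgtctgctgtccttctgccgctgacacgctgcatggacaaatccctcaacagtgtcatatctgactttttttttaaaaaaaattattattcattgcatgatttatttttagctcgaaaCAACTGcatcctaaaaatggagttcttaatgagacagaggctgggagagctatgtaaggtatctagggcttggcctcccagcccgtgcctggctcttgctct
Mrln: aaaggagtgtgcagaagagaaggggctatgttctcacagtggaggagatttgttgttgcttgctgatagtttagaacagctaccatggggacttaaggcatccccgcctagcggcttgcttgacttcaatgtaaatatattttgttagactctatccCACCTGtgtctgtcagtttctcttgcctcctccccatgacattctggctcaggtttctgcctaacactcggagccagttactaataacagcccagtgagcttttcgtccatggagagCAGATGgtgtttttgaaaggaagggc
The Atp2a1 start region held 1 E-box, whose letters CAGCTG began 55 bases before the start. The Casq2 region held 2 at positions -200 and -52, and a site for MEF2, another muscle transcription factor, at -69. The Mrln region held 2, of which CACCTG at -93 lay before the start and the other at 25 after it. The RefSeq table held promoters for 6 of the 10 members, and 5 of these 6 had a CANNTG on either strand, Ryr1 being the exception. The letters are common: 72.3% of all 32851 promoters of the table held them. CAGCTG, itself a CANNTG, was found in the promoters of Atp2a1 and Cacna1s and in 16.3% of all promoters, and CACCTG (or CAGGTG on the other strand) in that of Mrln and in 20.2%. The MEF2 pattern was found in that of Casq2 and in 1.86% of all. These are matches of letters in a short window and were not tied to any binding in these data.

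Most of the coupling genes were higher in muscle cells with abundant Myog than in those without it. In Het/tdT, 9 members had the minimum of 20 UMIs over the cells with 15 or more and with 0 Myog UMIs. Of these, 6 were past 2-fold higher with the whole interval above 1 (Ryr1, Cacnb1, Cacng1, Stac3, Atp2a1 and Casq2) and 0 were past 2-fold lower. Over all genes with the minimum count, 8.24% were past 2-fold higher and 13.5% lower. The median log2 ratio was 3.30 over the 9 members and -0.17 over all genes. The remaining 3, Ryr3, Atp2a2 and Mrln, were not past 2-fold in either direction.

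**Figure D1:**
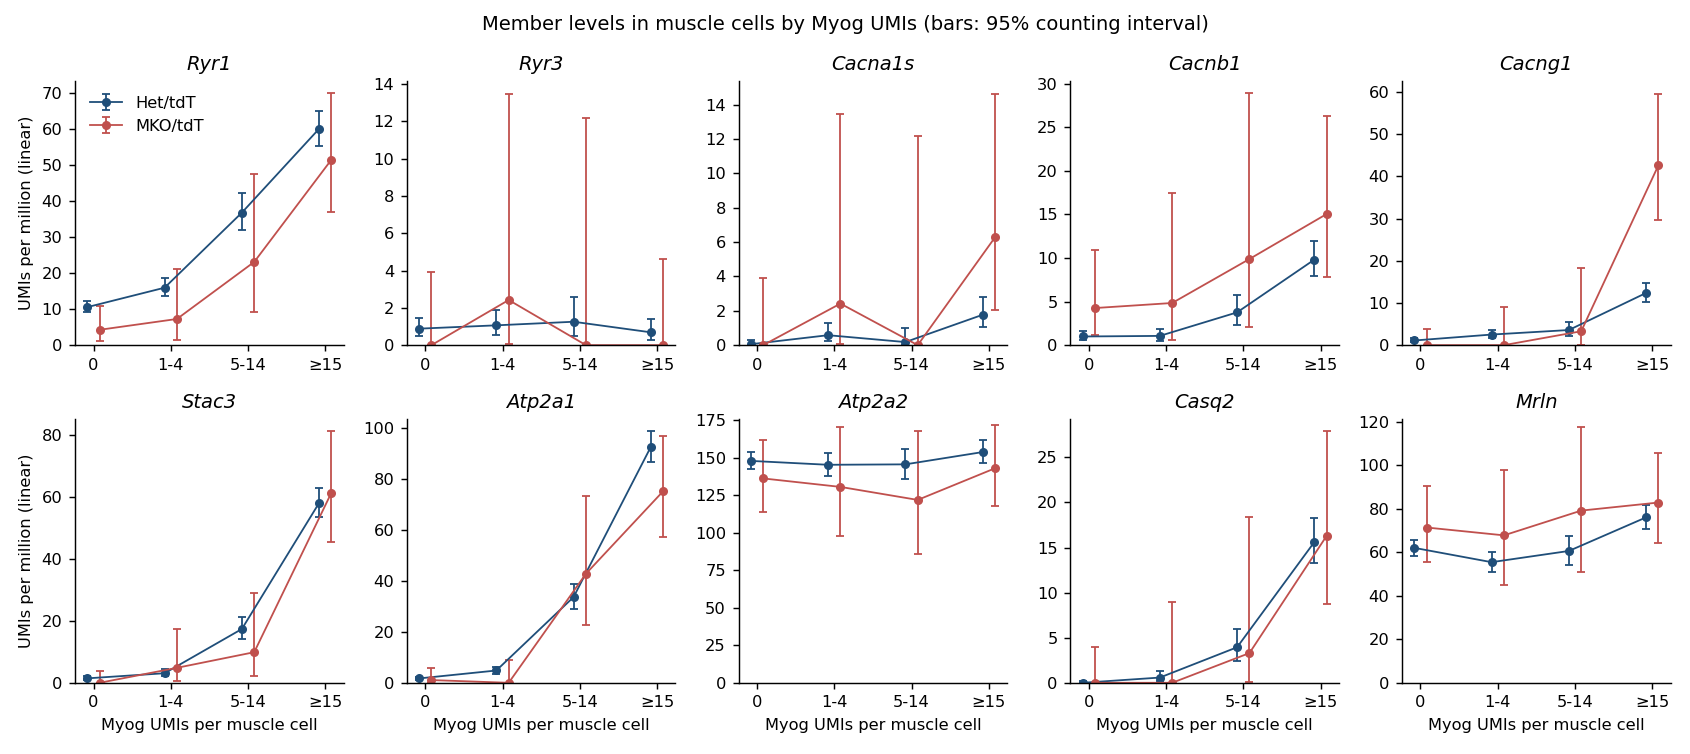
CPM (linear axis) of each of the 10 genes in muscle cells with 0, 1 to 4, 5 to 14 and 15 or more Myog UMIs, with exact 95% counting intervals, in Het/tdT and MKO/tdT. Atp2a1 and Stac3 climb over all 4 bins of Het/tdT, from 1.71 to 92.7 and from 1.44 to 58.1 CPM, while Atp2a2 stays between 145 and 154.

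The release channel of skeletal muscle, Ryr1 (chr7:29003344-29125179, minus strand), already had 191 UMIs in the Het/tdT cells without Myog, or 10.5 CPM (9.10 to 12.1). Its level was 15.9 CPM in cells with 1 to 4 Myog UMIs, 36.7 with 5 to 14 and 60.0 (55.3 to 64.9) with 15 or more. Ryr1 was thus 5.69-fold higher (4.83 to 6.73) in the last bin than in the first, the smallest ratio among the 6 members past 2-fold. In MKO/tdT its level ran from 4.26 CPM over 4 UMIs in cells without Myog to 51.4 (36.9 to 69.8) over 41 UMIs in the last bin, a ratio of 12.1 (4.37 to 46.4). Ryr3 (chr2:112631355-113217096, minus strand), an isoform found in several developing muscles and in neurons, was sparse. It had 16, 11, 7 and 7 UMIs in the 4 bins of Het/tdT and 1 UMI in all muscle cells of MKO/tdT. Its ratio of the last bin to the first in Het/tdT was 0.778, within counting error of no difference. The share of Ryr1 among the UMIs of Ryr1 and Ryr3 was 92.3%, 93.8%, 96.7% and 98.9% over the 4 bins of Het/tdT, so the pair was dominated by Ryr1 in each of them.

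The voltage sensor complex was assembled from genes of very different detectability. Cacna1s (chr1:136052750-136119822, plus strand), which encodes the pore-forming and voltage-sensing subunit Cav1.1, had only 26 UMIs in the muscle cells of Het/tdT and 6 in those of MKO/tdT. Of the 26, 1, 6, 1 and 18 fell in the 4 Myog bins. The last bin held 1.77 CPM against 0.0552 in the first, a ratio of 32.0 with an interval of 5.06 to 1334, from 19 UMIs in all and so under the minimum count. That interval lies above 1, but 6 of the 18 UMIs of the last bin lay in 1 cell and 12 in 5 cells. It treats UMIs as independent, so it settles neither the direction nor the size.

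Cacnb1 (chr11:98001508-98023034, minus strand), the beta subunit that brings Cav1.1 to the triad, had 18, 11, 21 and 100 UMIs in the bins of Het/tdT. Its level was 0.994 CPM (0.589 to 1.57) without Myog and 9.82 (7.99 to 11.9) with 15 or more, a ratio of 9.88 (5.94 to 17.4). Cacng1 (chr11:107703218-107716522, minus strand), the gamma subunit of the skeletal muscle channel, had 20, 26, 20 and 126 UMIs, and 1.10 against 12.4 CPM gave a ratio of 11.2 (6.96 to 19.0). In both genes most of the difference came between the third bin and the last. Stac3 (chr10:127501686-127508823, plus strand), an adaptor that the voltage sensor needs to reach and gate the release channel, was detected far more often, with 26, 32, 97 and 592 UMIs. Its level was 1.44 CPM (0.937 to 2.10) without Myog, 3.09 with 1 to 4 UMIs, 17.4 with 5 to 14 and 58.1 (53.5 to 63.0) with 15 or more. Stac3 was 40.5-fold higher (27.4 to 62.5) in the last bin, and its step from the second to the third bin was the first large one.

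In MKO/tdT most UMIs of Cacnb1, Cacng1 and Stac3 lay in the 42 cells with 15 or more Myog UMIs. Stac3 had 0, 2, 3 and 49 UMIs and Cacng1 0, 0, 1 and 34, so that the last bin was at least 19.2-fold higher for Stac3 and at least 13.4-fold higher for Cacng1 than a floor of 3 UMIs over the cells without Myog. For Cacng1 1 cell held 21 of the 34 UMIs of that bin, and without it 13 UMIs (16.8 CPM) remained, under the minimum count. Cacnb1 had 4, 2, 3 and 12 UMIs, under the minimum count, and its last bin was at 15.1 CPM (7.78 to 26.3). In that library 4 of the 6 members with enough UMIs (Ryr1, Cacng1, Stac3 and Atp2a1) were past 2-fold higher, against 7.58% of all genes.

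The pumps differed from each other over the Myog bins. Atp2a1 (chr7:126445858-126463108, minus strand), which encodes SERCA1, the pump of fast skeletal fibres, had 31, 50, 188 and 944 UMIs in the bins of Het/tdT. Its level was 1.71 CPM (1.16 to 2.43), then 4.83, 33.7 and 92.7 (86.9 to 98.8). The ratio of the last bin to the first was 54.2 (37.9 to 80.2). Atp2a2 (chr5:122453513-122502225, minus strand), which encodes SERCA2, the pump of heart and slow muscle and, in another form, of most cells, had 2681, 1506, 813 and 1567 UMIs. Its level stood at 148, 145, 146 and 154 CPM, and the ratio of the last bin to the first was 1.04 (0.976 to 1.11). Atp2a2 was thus as abundant in progenitors as in committed cells, while Atp2a1 was nearly absent from progenitors.

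**Figure D2:**
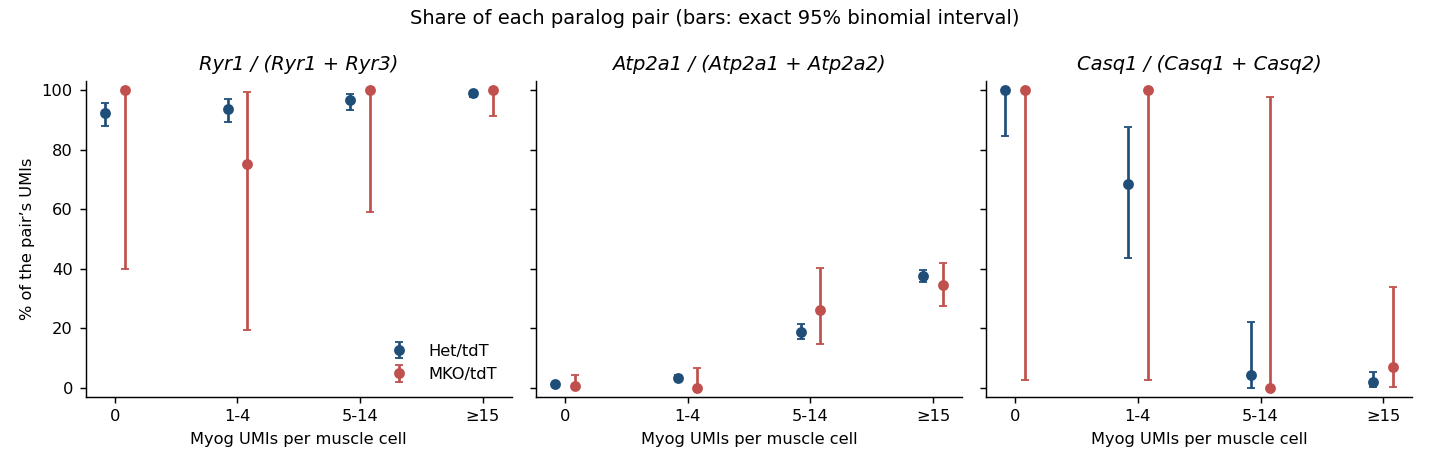
Percent of the UMIs of each paralog pair that came from the named gene, by Myog bin and library, with exact 95% binomial intervals. Atp2a1 takes 1.14% of the SERCA pair in Het/tdT muscle cells without Myog and 37.6% in those with 15 or more Myog UMIs, and Ryr1 takes over 90% of its pair in every bin of Het/tdT.

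The share of Atp2a1 among the UMIs of both pumps was 1.14% (0.778 to 1.62) in Het/tdT muscle cells without Myog, 3.21% with 1 to 4 Myog UMIs, 18.8% with 5 to 14 and 37.6% (35.7 to 39.5) with 15 or more. In MKO/tdT the shares were 0.775%, 0%, 26.0% and 34.5% (27.5 to 42.1). The intervals of the libraries overlapped in each bin. Among cells with 5 or more UMIs of Myh3, the embryonic myosin that marks the most differentiated cells, the share was 47.8% in 174 cells of Het/tdT and 41.5% in 8 cells of MKO/tdT. Atp2a2 therefore gave most UMIs of the pair in every Myog bin, and in the Myh3-rich cells of Het/tdT the interval for Atp2a1 (44.8 to 50.7) reached an even split. Both genes were counted at their 3′ ends, so these are shares of captured UMIs.

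Mrln (chr10:70204664-70219711, plus strand) encodes myoregulin, a small peptide of the sarcoplasmic reticulum that inhibits SERCA and is known from adult skeletal muscle. Over the Myog bins it differed far less than Atp2a1, the pump it restrains. Mrln had 1123, 574, 338 and 774 UMIs in the bins of Het/tdT, or 62.0 (58.4 to 65.7), 55.4, 60.6 and 76.0 (70.7 to 81.5) CPM. The last bin was 1.23-fold the first (1.12 to 1.34). In MKO/tdT the levels were 71.3, 67.7, 79.1 and 82.8 CPM, and the ratio of 1.16 (0.814 to 1.66) did not leave counting error. By Myh3 the difference was larger: Mrln was at 58.1 CPM in the Het/tdT muscle cells without Myh3 and at 120 (108 to 133) in those with 5 or more Myh3 UMIs, 2.06-fold higher (1.84 to 2.31). In MKO/tdT it was at 70.7 and 140, a ratio of 1.98 (1.20 to 3.11) that rests on 22 UMIs in 8 cells. Atp2a1 was 20.0-fold higher (17.4 to 23.0) in the same comparison of Het/tdT. Mrln was thus higher in the most differentiated cells too, by less than the pump.

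Cells without Myog thus had Mrln at nearly the level of committed cells while Atp2a1 was scarce in them. In the 948 Het/tdT cells with Pax7 and no Myog, Mrln had 988 UMIs, or 63.0 CPM (59.2 to 67.1), and in the 39 such cells of MKO/tdT it had 53 UMIs, or 76.7. In Het/tdT 54.1% of muscle cells without Myog had a Mrln UMI and 62.3% of those with 15 or more did. When every cell was thinned to 2000 UMIs, which left out 0 cells of these bins, these shares became 10.9% (9.12 to 12.9) and 14.5% (11.8 to 17.5). Over the same thinned bins, the share of cells with an Atp2a1 UMI was 0.357% and 14.8%, against 2.59% and 56.1% before thinning. The share with a Stac3 UMI was 0.714% and 10.5% thinned, against 2.14% and 48.9%. Endothelial-like cells of Het/tdT, which should lack these genes and had a median of 12220 UMIs, gave thinned shares of 0.522% for Mrln and 0.261% for both Atp2a1 and Stac3. Before thinning those endothelial-like shares were 1.83%, 1.31% and 3.13%. The thinned endothelial-like shares rest on 2 of 383 cells for Mrln (0.0633% to 1.87%) and 1 for Atp2a1 (0.00661% to 1.45%). The thinned Atp2a1 share of muscle cells without Myog rests on 4 of 1121 cells. The part of free RNA in these shares was not tested.

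Casq2 (chr3:102086415-102146514, plus strand) encodes the calsequestrin of heart and slow muscle, which binds calcium inside the store. It was not detected in the 1121 Het/tdT muscle cells without Myog, where 0 UMIs allow up to 0.204 CPM. The next bins held 6, 22 and 159 UMIs, or 0.579, 3.94 and 15.6 (13.3 to 18.2) CPM. The last bin was at least 94.3-fold higher than a floor of 3 UMIs over the first. MKO/tdT had 0, 0, 1 and 13 UMIs, with 16.3 CPM in the last bin. Its partner of fast muscle, Casq1, went the other way, with 22, 13, 1 and 3 UMIs in Het/tdT, and took 100%, 68.4%, 4.35% and 1.85% of the UMIs of the pair. Casq1 was not particular to muscle, with 109 UMIs in the 9770 other cells of Het/tdT and 39 in its 2753 muscle cells. It took 70.8% of the UMIs of the pair in those other cells. In the last bin of Het/tdT 66 of 620 cells (10.6%) had a Casq2 UMI, against 348 (56.1%) with an Atp2a1 UMI. Of the 187 Casq2 UMIs in all muscle cells of Het/tdT, 167 lay in the 174 cells with 5 or more Myh3 UMIs. Most calsequestrin UMIs in the last bin were thus of the form known from heart and slow fibres, but in far fewer cells than the fast pump. The gene models Gm43244 and 4632404M16Rik overlap Casq2 on the same strand, so its count is less certain than the others.

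The rest of the coupling machinery moved in part with these genes. A list of 55 further genes of the pathway was used, of which 53 were found under those symbols. In Het/tdT 40 had the minimum count, and between 15 or more and 0 Myog UMIs 15 (37.5%) were past 2-fold higher, 7 (17.5%) past 2-fold lower and 18 neither, against 8.24% higher and 13.5% lower over all genes. The share that was lower is thus near that of all genes. Their median log2 ratio was 0.26. Among those higher were genes of the triad and release complex: Trdn (triadin, 78 UMIs against 1), Jsrp1 (7.14-fold), Hrc (38.9-fold), Srl (16.7-fold), Jph2 (2.82-fold) and the counter-ion channels Tmem38a (2.05-fold) and Tmem38b (3.59-fold). The T-tubule genes Bin1 (4.38-fold), Cav3 (14.5-fold), Dysf (3.56-fold), Popdc3 (4.47-fold) and Mtm1 (2.23-fold) were higher too. So were Orai1 (6.28-fold), a channel for calcium entry, and Cacng6, a gamma subunit, with 46 UMIs against 2.

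The pump inhibitor Sln (sarcolipin) contrasted with Mrln. Sln went from 0.718 CPM in Het/tdT muscle cells without Myog to 70.3 with 15 or more, a ratio of 98.0 (56.9 to 185). Among the 7 that were lower were Casq1 (4.12-fold lower), the release channel partner Fkbp1b (2.21-fold) and the inositol trisphosphate receptor Itpr1 (2.06-fold). The other 4 were genes of the channels of other tissues: Cacna1c (2.25-fold), Cacnb2 (2.92-fold), Cacnb3 (3.07-fold) and Cacnb4 (2.55-fold). Among the beta subunits, Cacnb1 was thus higher while Cacnb2, Cacnb3 and Cacnb4 were lower in the same comparison. In MKO/tdT 19 of the list had enough UMIs, 10 were past 2-fold higher (Jph1, Jsrp1, Hrc, Srl, Tmem38b, Bin1, Cav3, Popdc3, Sln and Orai1) and 0 lower, against 7.58% of all genes higher and 10.4% lower.

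**Figure D3:**
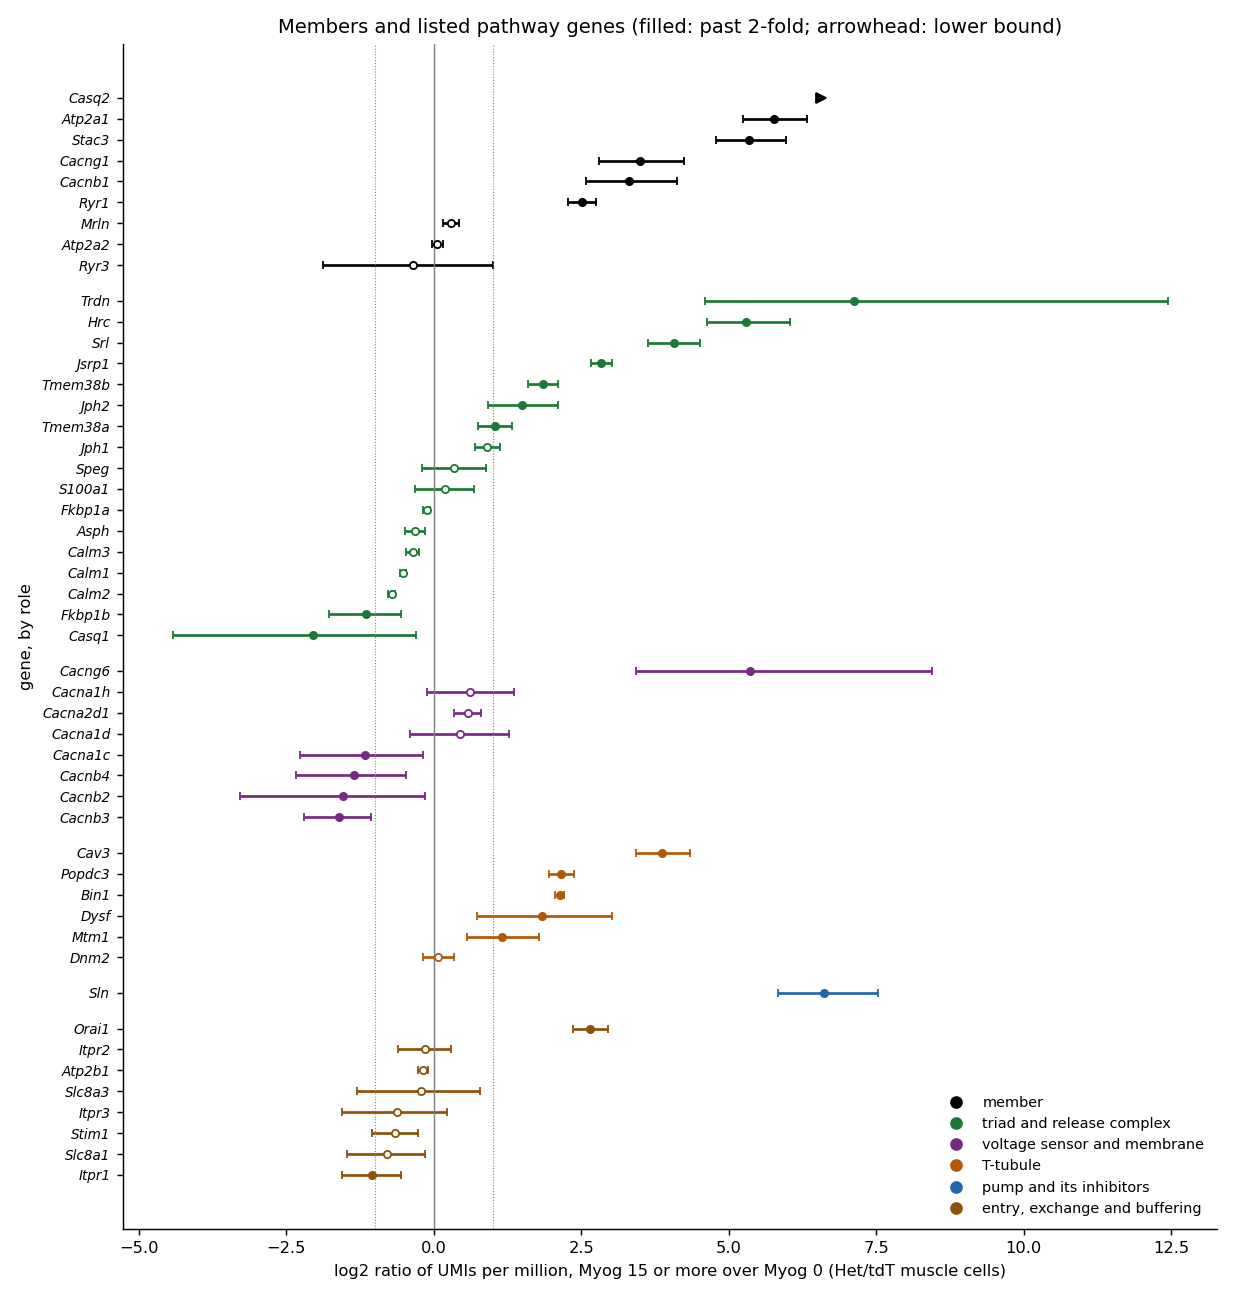
Log2 ratio of CPM in Het/tdT muscle cells with 15 or more over those with 0 Myog UMIs, with exact 95% intervals. Shown are those of the 10 genes and of the further pathway genes, grouped by role, that had the minimum count. Sln, Trdn and Atp2a1 lie at the right, Atp2a2 and Mrln near 0, and Casq1 and 3 beta subunits of calcium channels at the left.

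Most members were also higher in muscle cells than in the other tdTomato-positive cells. In Het/tdT 7 of 10 were past 2-fold higher, against 4.96% of all genes. The ratios were 15.7 (13.4 to 18.5) for Ryr1, 12.6 (4.77 to 42.1) for Cacna1s, 11.6 for Cacng1, 15.4 for Stac3, 32.0 (25.9 to 40.0) for Atp2a1, 10.1 for Casq2 and 20.1 (18.0 to 22.6) for Mrln. Ryr3 (0.921, 0.626 to 1.33), Cacnb1 (0.975, 0.802 to 1.18) and Atp2a2 (1.05, 1.02 to 1.08) stood at nearly the same level in muscle and in other cells. In MKO/tdT 7 of the 9 with enough UMIs were past 2-fold higher, against 4.47% of all genes. Its ratios ran from 2.24 (1.37 to 3.47) for Cacnb1 to 68.8 for Mrln and 135 (85.6 to 218) for Atp2a1. Ryr3 (0.330) and Atp2a2 (0.942) were not past 2-fold there.

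**Figure D4:**
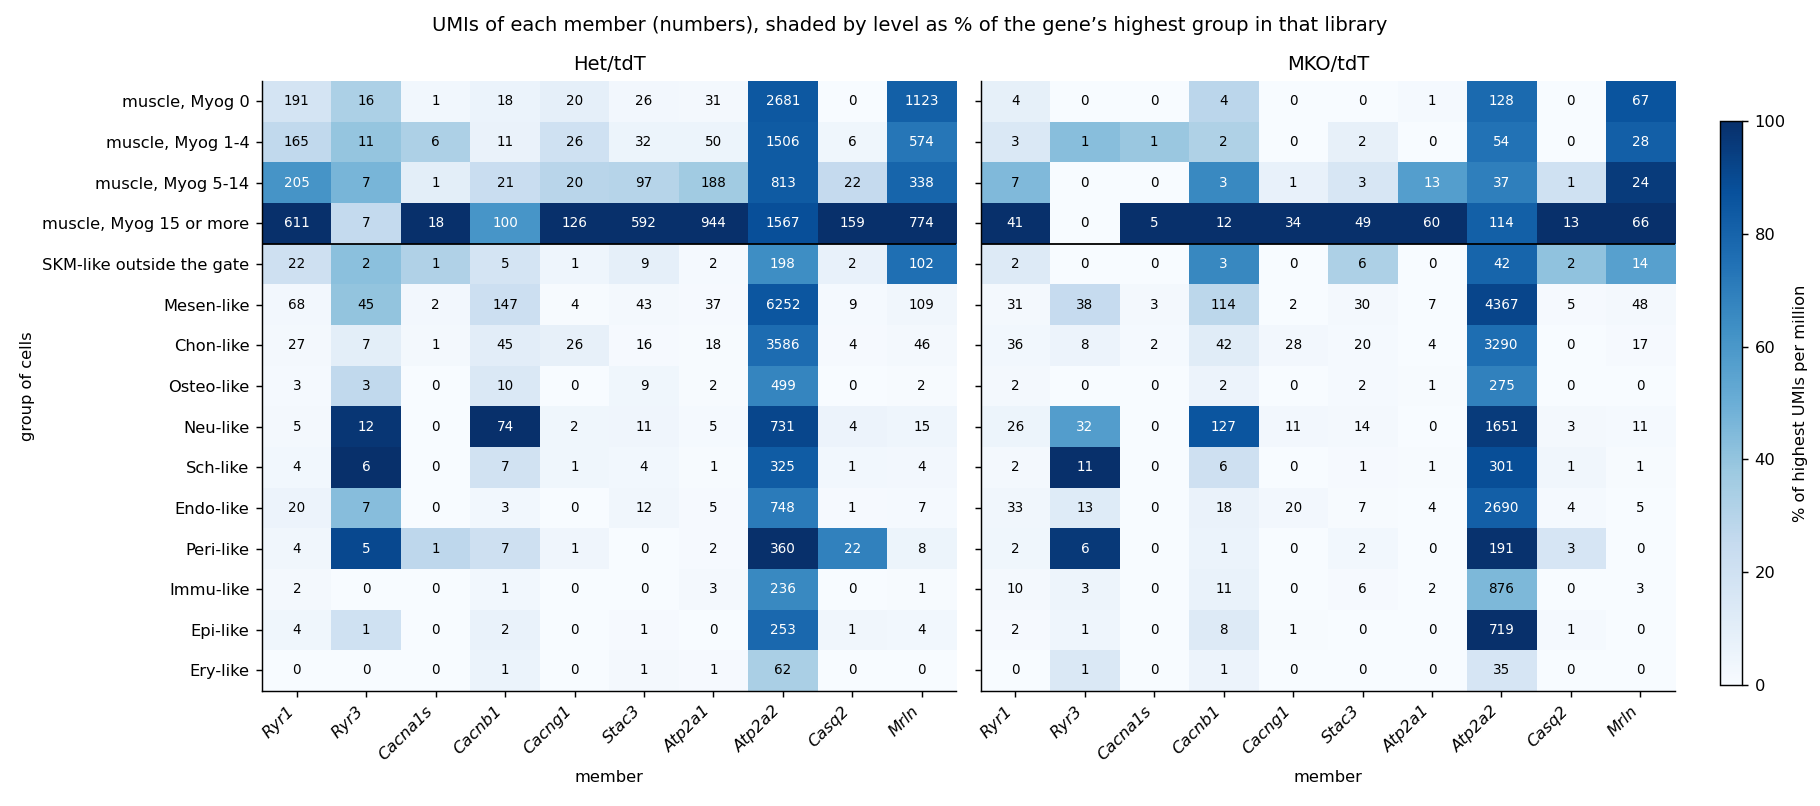
UMIs of the 10 genes in the Myog bins of muscle cells and in the named classes of other cells of each library. Shading gives the CPM as a percent of the gene's highest group in that library. Atp2a2 has UMIs in every class, and Mrln and Atp2a1 stand out in muscle. Cacnb1 reaches 16.1 CPM in the neuron-like cells of Het/tdT, against 9.82 in its last Myog bin.

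Some members had a second place of expression. All kept cells of both libraries were grouped into 30 clusters, of which 25 could be named from marker lists, and the classes below hold the cells outside the muscle gate. Since clusters are built from all genes these levels are a description. Free RNA of muscle can add UMIs to other droplets, so each count was set beside what would be seen if the gene came along with Mylpf, an abundant muscle transcript, in the ratio found in muscle cells. Cacnb1 had 74 UMIs (16.1 CPM) in the neuron-like cells of Het/tdT and 127 (12.9) in those of MKO/tdT, where the Mylpf ratio gave 1.0 and 0.790 UMIs. Cacng1 had 26 UMIs (0.974 CPM) in chondrocyte-like cells of Het/tdT and 28 (1.14) in those of MKO/tdT, against 4.51 and 2.04. In the endothelial-like cells Cacng1 had 0 UMIs over 383 cells of Het/tdT and 20 UMIs in 19 of 990 cells of MKO/tdT, at least 2.16-fold higher than the floor, against 2.26 UMIs at the Mylpf ratio.

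Casq2 had 22 UMIs (10.7 CPM) in the pericyte-like cells of Het/tdT, of which 7 lay in 1 cell, and 3 (2.73) in those of MKO/tdT. The Mylpf ratio gave 0.316 UMIs for the former. Ryr3 was at 2.61 and 3.26 CPM in the neuron-like cells of Het/tdT and MKO/tdT, and at 2.68 and 5.67 in the Schwann-like ones, over no more than 32 UMIs in any of them. Atp2a2 was at 175 and 174 CPM in the pericyte-like cells of Het/tdT and MKO/tdT, and was lowest among the named classes in erythroid-like cells, with 59.3 and 29.4. For Atp2a1 and Mrln the UMIs in other cells of Het/tdT were fewer than the Mylpf ratio gave, with 92 against 261 for Atp2a1 and 339 against 605 for Mrln. In MKO/tdT the counts were 27 against 44.8 for Atp2a1 and 132 against 112 for Mrln. SKM-like cells outside the gate accounted for 102 of the Mrln UMIs of Het/tdT, at 57.5 CPM. Ryr1 had 181 UMIs against 252 in Het/tdT, and 166 against 33.3 in MKO/tdT. Of the Het/tdT values, SKM-like cells outside the gate made up 116 of the 252 but 22 of the 181. They held 1050 of the 2290 Mylpf UMIs, and the shortfall of Ryr1 rests on them. Mylpf stood at 241 CPM in Het/tdT muscle cells against 650 for MKO/tdT, so the yardstick differs between libraries. Whether Ryr1 outside muscle differs beyond free RNA was not tested.

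The genes with the most similar pattern to each member were taken over the 14 profiles of Het/tdT (4 Myog bins and 10 classes), by Pearson r of log2(CPM + 1) among 13021 genes with at least 200 UMIs. All profiles share 1 library, so these are descriptions. Ryr1 was nearest to Neb (r = 0.984), Synpo2l (0.978) and Vgll2 (0.978). Atp2a1 was nearest to Tnnt2 (0.985), Mymx (0.982) and Myl1 (0.981), which encode a troponin, a fusion peptide and a myosin light chain. Stac3 was nearest to Ect2l (0.957), 5430431A17Rik (0.955) and Klhl41 (0.951), and Cacng1 to Il17b (0.955), Synpo2l (0.95) and Mylk4 (0.948). Mrln was nearest to Pitx3 (0.986), Mstn (0.984), which encodes myostatin, and Vgll2 (0.978), also among the 3 nearest to Ryr1. The neighbours of Casq2 (Chrm3, 0.911) and of Cacnb1 (Dlg2, 0.936) were less close.

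Few of the members differed between the genotypes once the loss of muscle cells was set aside. In muscle cells, MKO/tdT over Het/tdT, 3 of 10 were past 2-fold higher with the whole interval above 1 (Cacna1s, Cacnb1 and Cacng1) and 0 lower. Over all genes 2.35% were higher and 1.79% lower. Cacna1s was at 0.588 CPM in Het/tdT and 2.45 in MKO/tdT, a ratio of 4.16 (1.40 to 10.3) from 26 and 6 UMIs. Cacnb1 was at 3.39 and 8.56, a ratio of 2.53 (1.52 to 4.0) from 150 and 21 UMIs. Cacng1 was at 4.34 and 14.3, a ratio of 3.29 (2.22 to 4.73) from 192 and 35 UMIs.

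Single cells carried 2 of these 3. In MKO/tdT 21 of the 35 Cacng1 UMIs (60.0%) lay in 1 cell, which also had 16 Myog, 31 Myh3 and 216 Acta1 UMIs among 22293, and 30 of the 35 lay in 5 cells. In Het/tdT the cell with the most Cacng1 held 13 of 192 UMIs, and 118 cells had at least 1. Another MKO/tdT cell held 4 of the 6 Cacna1s UMIs. Without the cell richest in each gene in each library, the ratio was 1.42 for Cacng1 and 1.82 for Cacna1s, neither past 2-fold, and of the 3 only Cacnb1 remained past 2-fold. With muscle cells chosen by Pax7, Myf5 and Myod1 alone, none of the 3 remained: the ratio was 1.77 for Cacnb1 and 1.82 for Cacng1, and Cacna1s had 4 and 7 UMIs, under the minimum.

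Cacnb1 moved with another value in the muscle cells without Myog, but not in the last bin. It was high in neuron-like cells, and the 8 neuronal markers, all 8 detected in each group, summed to 137 CPM in Het/tdT muscle cells without Myog and 723 in those of MKO/tdT. With 15 or more Myog UMIs they summed to 86.8 and 56.5. Cacnb1 was at 0.994 and 4.26 CPM without Myog, from 18 and 4 UMIs. In the last bin it was at 9.82 and 15.1, from 100 and 12 UMIs, and its ratio of 1.53 (0.767 to 2.80) was not past 2-fold. The part of neuronal RNA in the Cacnb1 difference was not tested. The intervals of the mix of bins overlapped, as cells with 15 or more Myog UMIs were 22.5% (21.0 to 24.1) of the muscle cells of Het/tdT and 42 of 140 (22.6% to 38.3%) in MKO/tdT. Within that bin 2 of the 9 members with enough UMIs were past 2-fold higher, Cacna1s (3.55, 1.03 to 9.92) and Cacng1 (3.45, 2.29 to 5.07), against 2.30% of all genes higher and 2.03% lower. Without the richest cell of each library, the levels in that bin were 11.1 CPM in Het/tdT and 16.8 in MKO/tdT for Cacng1, and 1.18 and 1.28 for Cacna1s.

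The other 7 members had muscle levels within 2-fold of each other or too few UMIs to tell. Ryr1 was at 26.5 CPM in Het/tdT and 22.4 in MKO/tdT, a ratio of 0.846 (0.634 to 1.11). Atp2a1 was at 27.4 and 30.2 (ratio 1.10, 0.858 to 1.39) and Stac3 at 16.9 and 22.0 (ratio 1.30, 0.970 to 1.72). For Ryr1, Atp2a1 and Stac3 the counting intervals lie within 2-fold in either direction. They cover neither the spread between embryos nor the clumping of UMIs in cells, so a 2-fold change between genotypes is not excluded. In MKO/tdT 5 cells held 15 of the 55 Ryr1 UMIs, 25 of the 74 of Atp2a1 and 19 of the 54 of Stac3. Atp2a2 was at 148 and 136 (ratio 0.915, 0.817 to 1.02) and Mrln at 63.5 and 75.4 (ratio 1.19, 1.02 to 1.38). Casq2, at 4.23 and 5.71, had a ratio of 1.35 with an interval of 0.724 to 2.32, and Ryr3, with 41 UMIs and 1, one of 0.440 (0.0109 to 2.59). Of the further pathway genes 46 had enough UMIs, and 2 were past 2-fold higher in MKO/tdT muscle cells: Trdn (2.23, 1.15 to 3.99) and Sln (2.19, 1.78 to 2.66).

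Outside muscle the members that differed were lower in MKO/tdT. Of the 9 with enough UMIs, 3 were past 2-fold lower and 0 higher, against 1.52% and 6.72% of all genes. Atp2a1 was at 0.857 CPM in the other cells of Het/tdT and 0.224 in those of MKO/tdT, 3.83-fold lower. Casq2 was at 0.419 and 0.174, 2.41-fold lower, and Mrln at 3.16 and 1.10, 2.88-fold lower. For Casq2 much of this lay in pericyte-like cells, which held 22 of its 45 UMIs in Het/tdT and 3 of its 21 in MKO/tdT. The summed skeletal muscle markers were also lower, at 63.0 CPM in the other cells of Het/tdT and 20.8 in those of MKO/tdT, and Mylpf was at 21.3 and 8.02. The part of muscle RNA in these differences was not tested. Atp2a2 was at 141 and 144 CPM in the same cells.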

How the data were processed

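Single cells of 1 library per genotype were measured. The deposited values are raw UMI counts per gene and barcode, which the authors made with Cell Ranger (5.0.0 in the matrix header, 3.1.0 in the submitters' processing notes) on mm10, with both libraries joined after down-sampling of reads. Introns were not counted, which lowers the count of unspliced RNA. Cells within 2 SD of the library mean of log10 UMIs and log10 genes and with up to 10% mitochondrial UMIs were kept. No doublet caller was run, and doublets were limited only by those upper bounds.

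UMIs were summed over the cells of a group and divided by all UMIs of those cells, per 1000000 (CPM). Ratios carry the exact 95% interval of the split of the counts. A gene was past 2-fold when the ratio exceeded 2 or its inverse and the whole interval lay on that side of 1, with at least 20 UMIs over both groups. No test was made, since there is 1 library per genotype. Clusters came from 2000 variable genes, 30 principal components and the Leiden method, and were named where at least 3 listed markers led them.

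Named were the 10 genes, Srsf2, the gate genes, pathway genes by role or in counts of 5 or fewer, and the 3 nearest genes by r. The genes and lists were chosen with earlier results of these data known. The ratios and intervals were tested on simulated counts drawn independently for each gene. Those counts hold no clumping of UMIs in cells, so the simulation does not cover it. Alternatives were other gates and cell limits, other scalings, thinning to 2000 UMIs, a minimum of 50 UMIs and other Myog bins. Coordinates are from GENCODE on GRCm38. Leiden clusters used leidenalg 0.10.2 after scikit-learn 1.9.0, intervals scipy 1.17.1, sums numpy 2.4.6 and pandas 2.3.3, and plots matplotlib 3.10.9, all in Python 3.11.15.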

Additional observations from a re-analysis of the deposited data

Results flagged for a closer look

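Mrln went opposite ways in muscle and in the other cells. Its log2 ratio of MKO/tdT over Het/tdT was 0.25 (95% counting interval 0.03 to 0.46) in muscle cells and -1.53 (-1.83 to -1.23) in the other cells, and with 1 library per genotype each direction rests on 1 library a side. The difference between the 2 ratios was not tested. Its muscle ratio is under 2-fold. SKM-like cells outside the gate held 102 of the 339 Mrln UMIs in the other cells of Het/tdT and 14 of the 132 in MKO/tdT. The summed skeletal muscle markers in the other cells were at 63.0 and 20.8 CPM. The part of muscle RNA in the ratio of the other cells was not tested.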

How the results depend on the processing

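No paired analysis was possible because each genotype has 1 library and the labels number no replicates, and for the same reason no library could be left out. Counting intervals treat UMIs as independent, and Cacna1s and Ryr3 are limited by depth. Of the members past 2-fold between genotypes in muscle cells (3), 0 remained with the gate without Myog, where the count was 1 because Casq2 passed (2.12-fold). The count was 0 with cells thinned to 2000 UMIs, and 1 (Cacnb1) without the cell richest in each gene, a setting chosen after seeing the data. Of those higher with abundant Myog in MKO/tdT (4), the count was 0 with thinned cells and 1 with a minimum of 50 UMIs. Of those higher in muscle than in other cells of MKO/tdT (7), it was 3 with thinned cells, and of the pathway genes higher with Myog in Het/tdT (15), 9 with thinned cells. Thinning leaves fewer UMIs, so fewer genes reach the minimum. Cacna1s turned around between muscle and other cells of Het/tdT under the gate without Myog, from a log2 ratio of 3.66 to -0.16. Its 26 UMIs in muscle and 5 in other cells became 7 and 24. That gate counts cells as other cells when they were in the muscle gate only through Myog. Leaving aside the removal of the richest cell, 55 of the recomputed counts stayed within 1.5 times the value reported and 6 did not. In Het/tdT the members past 2-fold ran from 4 to 7 by Myog and from 6 to 7 between muscle and other cells. Every direction between genotypes turns around if the libraries are named by the sample titles to which the repository attaches their summaries.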
